A study of Saccharomyces cerevisiae with 12 samples.

Results

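After long-term passaging, budding yeast cells lacking the SUMO protease Ulp2 were set against control cells that had been passaged for the same 500 generations. The comparison rests on 6 of the 12 RNA-seq libraries of the series, chosen by their labels alone: 3 of ulp2 null cells at 500 generations (ulp2 null 500G) and 3 of WT cells at 500 generations (WT 500G). The other 6 libraries, of the same strains at 50 generations (WT 50G and ulp2 null 50G), entered the fit so that all groups shared an estimate of the spread, and they show whether a difference was already there early in the passaging. All cells were Saccharomyces cerevisiae of the MHY1379 background, a MATa haploid with the auxotrophic alleles ura3-52, trp1-1, lys2-801 and his3-Δ200 and an allele of leu2, whose chromosomal ULP2 was replaced by HIS3. By the methods of the study, the cells called WT carried ULP2 on the URA3-marked centromeric plasmid YCplac33, and the ulp2 null cells had lost that plasmid by counter-selection on FOA and received YCplac33 without an insert. Both were diluted daily in rich medium (YPD) and harvested in mid-exponential growth. The sources do not say whether the 3 libraries of a group came from separately passaged lines, so the p-values measure the spread between these libraries, which may be technical. ULP2, the plasmid and its marker, the difference in TRP1 level described below, and any mutation picked up by a passaged strain changed together between the groups and cannot be told apart. By genome sequencing, the study reports missense mutations in UBC9 and IFM1 for the passaged ulp2 null strain. For the passaged WT strain it reports a missense mutation in BUB1.

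SUMO is a small protein that E1, E2 and E3 enzymes attach to lysines of other proteins, often in chains. Ulp2 is the nuclear protease that trims those chains, and yeast without it are known to grow poorly and to be sensitive to heat and to DNA damage. The question here was which transcripts still separate the strains once both have been passaged equally.

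Expression was measured as FPKM (fragments normalised for transcript length and library size), so no read depth is known and no counting interval can be given. Differences are on the log2(FPKM + 1) scale, ulp2 null 500G minus WT 500G, which understates the change of low genes, and a gene was called at a Benjamini-Hochberg adjusted p under 0.05 in limma, in which all adjusted p-values below were computed. The 500G libraries listed between 559 and 637 of the 7126 genes at 0, genes of the mitochondrial genome among them, so a 0 is given as a listed value only. As a weak check of the MATa label, the 7 a-specific genes had library medians of 20.5 to 46.9 FPKM in the 6 libraries, and the 4 alpha-specific genes 5.75 to 11.7 FPKM. The lists hold different genes, and in WT 500G replicate 2 the medians were 20.5 and 10.5 FPKM. Chromosomes I and XII, whose genes had median strain differences of 0.58 and 0.69 at 50G, had medians of -0.06 and 0.02 at 500G.

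Of 6572 genes tested, 720 (11.0%) separated the passaged strains. In ulp2 null 500G 322 were higher (4.90%) and 398 lower (6.06%), shares to set beside the list counts below. Most of these differences were small. Their median size was 0.43 on the log2 scale, 458 were under 0.5, and only 49 were over 2-fold (0.746% of all genes tested), 28 of them higher and 21 lower. In 719 of the 720 the 3 libraries of one strain lay wholly above the 3 of the other, whereas 27.3% of all genes tested did so. The calls were made on these same libraries, so this separation adds no support to them. The exception was YLR285C-A, a low-level reading frame. With only the 6 libraries of the comparison in the fit, 133 genes passed, 131 of them among the 720, and 318 of the 720 passed in each of the 6 fits that left out a single library of these groups. Leaving out WT 500G replicate 2 left 409 calls and leaving out ulp2 null 500G replicate 2 left 438. When the libraries were scaled to an equal sum over genes other than those of ribosomal proteins, the median of all genes moved from -0.03 to 0.07, a shift of 0.11, and the split of calls became 482 higher and 107 lower (81.8% higher against 44.7%), so the call of a small fall depends on the scaling.

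**Figure D1:**
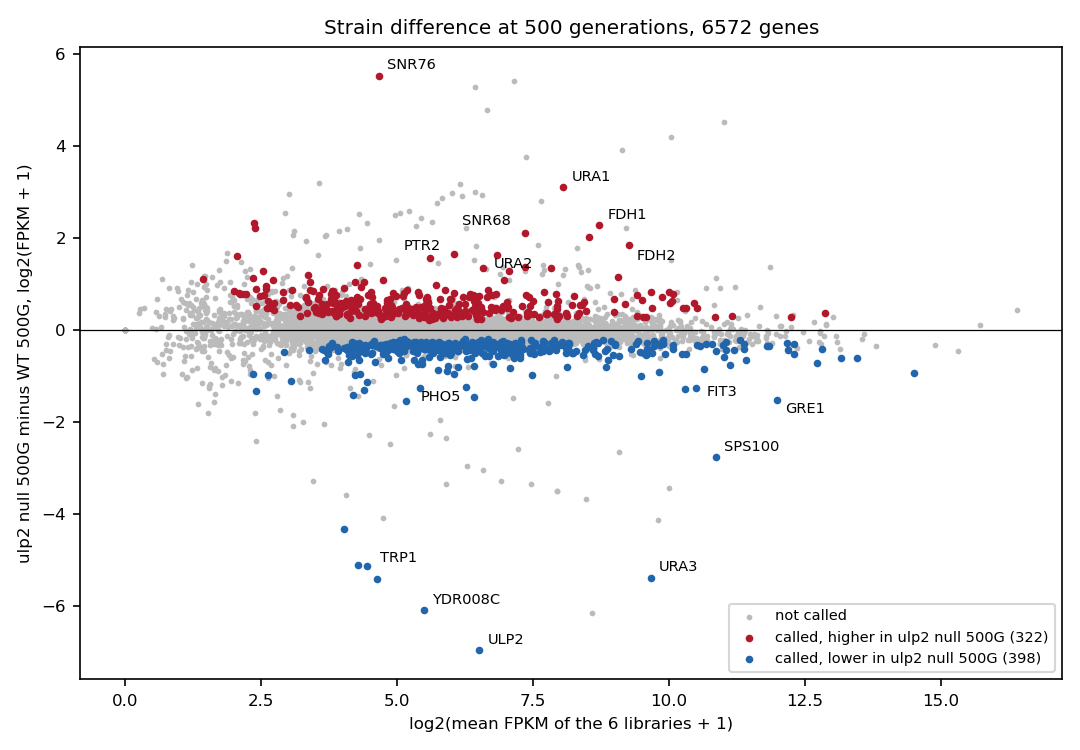
Each point is 1 of the 6572 genes tested, with the mean FPKM of the 6 libraries at 500G on the x axis (log2 of the value plus 1) and the difference between ulp2 null 500G and WT 500G on the y axis (log2). The 322 genes called higher are red and the 398 called lower are blue; ULP2, YDR008C, URA3 and TRP1 lie lowest among the labelled genes, and SNR76 and URA1 highest.

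The genes that define the strains were among the largest falls. ULP2 had 162, 174 and 202 FPKM in WT 500G and 0.0543, 0.412 and 0.995 FPKM in ulp2 null 500G (log2 difference -6.97, SE 0.19, adjusted p = 4.2e-09), so the labels hold in every library. YIL030W-A, a reading frame beside ULP2 on chromosome IX by its systematic name, went with it, at 50.0, 27.8 and 12.4 against 0, 1.41 and 0 FPKM (adjusted p = 0.00045). URA3, which makes the last enzyme of UMP synthesis and marks the plasmid, stood at 1523, 1608 and 1621 FPKM in WT 500G and at 36.7, 38.7 and 35.4 FPKM in ulp2 null 500G, a 42.9-fold gap in mean FPKM (adjusted p = 2.7e-11). The ulp2 null libraries thus lacked the URA3 level of the WT libraries although both strains are described as carrying the URA3-marked vector, and the same held at 50G, where the means were 2209 ± 162 and 44.7 ± 4.33 FPKM (SD, n = 3). TRP1, for tryptophan synthesis, also separated the strains, at 44.8, 38.8 and 40.6 against 0.384, 0.284 and 0 FPKM (adjusted p = 4.3e-09), with the overlapping reading frame YDR008C at 92.0, 73.2 and 98.1 against 0, 0 and 1.16 FPKM (adjusted p = 2.9e-07). It was there at 50G too, where TRP1 was at 38.0, 38.3 and 36.3 FPKM in WT and 0, 0 and 0.132 FPKM in ulp2 null, although the strain descriptions give trp1-1 for all cells. LEU2, for leucine synthesis, was lower by a smaller step, 75.2, 76.7 and 85.8 against 60.1, 55.3 and 57.8 FPKM (log2 difference -0.45, adjusted p = 0.0039, and 0.0537 with only the 6 libraries). HIS3 and LYS2 had log2 differences of -0.12 and -0.16 that did not pass (adjusted p = 0.47 and 0.15).

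Genes of pyrimidine synthesis were higher in ulp2 null 500G. Yeast builds UMP from glutamine and aspartate through Ura2, Ura4, Ura1, Ura5 or Ura10 and Ura3 in that order, and the activator Ppr1 raises several of these genes when intermediates upstream of Ura3 build up. Of 15 genes of pyrimidine synthesis and salvage, 5 rose and none fell, where 4.90% of all genes tested rose. URA1, for dihydroorotate dehydrogenase, was at 54.9, 53.3 and 54.9 FPKM in WT 500G and at 486, 454 and 483 FPKM in ulp2 null 500G. These sets are far apart, an 8.72-fold gap in mean FPKM (log2 difference 3.10, SE 0.08, adjusted p = 4.2e-09). URA2, for the enzyme that opens the pathway, was at 55.9, 51.1 and 51.9 against 146, 134 and 128 FPKM (log2 difference 1.35, adjusted p = 4.9e-06). URA4, for dihydroorotase, was at 72.3, 72.9 and 79.2 against 116, 127 and 129 FPKM (log2 difference 0.72, adjusted p = 0.00018). FUI1, the uridine permease, was at 28.4, 18.1 and 24.7 against 73.8, 75.2 and 64.3 FPKM (log2 difference 1.56, adjusted p = 0.00026). Each of these 4 genes kept its call in all 6 fits without a library and with only the 6 libraries. URA8, a CTP synthase, rose by a smaller step (log2 difference 0.34, adjusted p = 0.012, and 0.066 with only the 6 libraries). The URA3 level given above moved with this group, and its part in the result was not tested.

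These differences were present at 50G for some members and not for others. URA1 already stood apart at 50G, at 62.9 ± 2.12 FPKM in WT and 403 ± 52.5 FPKM in ulp2 null (SD, n = 3), and the difference at 500G was larger by 0.45 on the log2 scale (adjusted p = 0.021 for the change in difference). URA2 widened more, from 0.73 to 1.35 (adjusted p = 0.0035), whereas URA4 narrowed, from 1.16 to 0.72 (adjusted p = 0.01). URA8 showed no call at 50G, with a log2 difference of -0.02.

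The letters CGG, any 6 bases and CCG, which Ppr1 is known to bind, were searched on the RefSeq R64 genome in the 600 bases before each start codon; the pattern reads the same on both strands. They occurred before 4 of the 15 genes of the list, 3 of the 5 that rose (URA1, URA4 and FUI1) and 1 of the 10 others (FCY1), and before 187 of all 5999 protein-coding genes (3.12%). The stretches before the members that rose are shown. Capitals mark the match, and each sequence reads in the direction of its gene.
URA1 chrXI:24994-25023 (+ strand): tttcttcacCGGGCTTTGCCGaaggttatt
URA1 chrXI:25025-25054 (+ strand): cacgatcttCGGCATTCGCCGaaaattttt
URA4 chrXII:963646-963675 (+ strand): ttcatcattCGGAGAATTCCGatgaatcgg
FUI1 chrII:140591-140620 (- strand): gttgatgctCGGGATTTGCCGgtttcgtcc

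**Figure D2:**
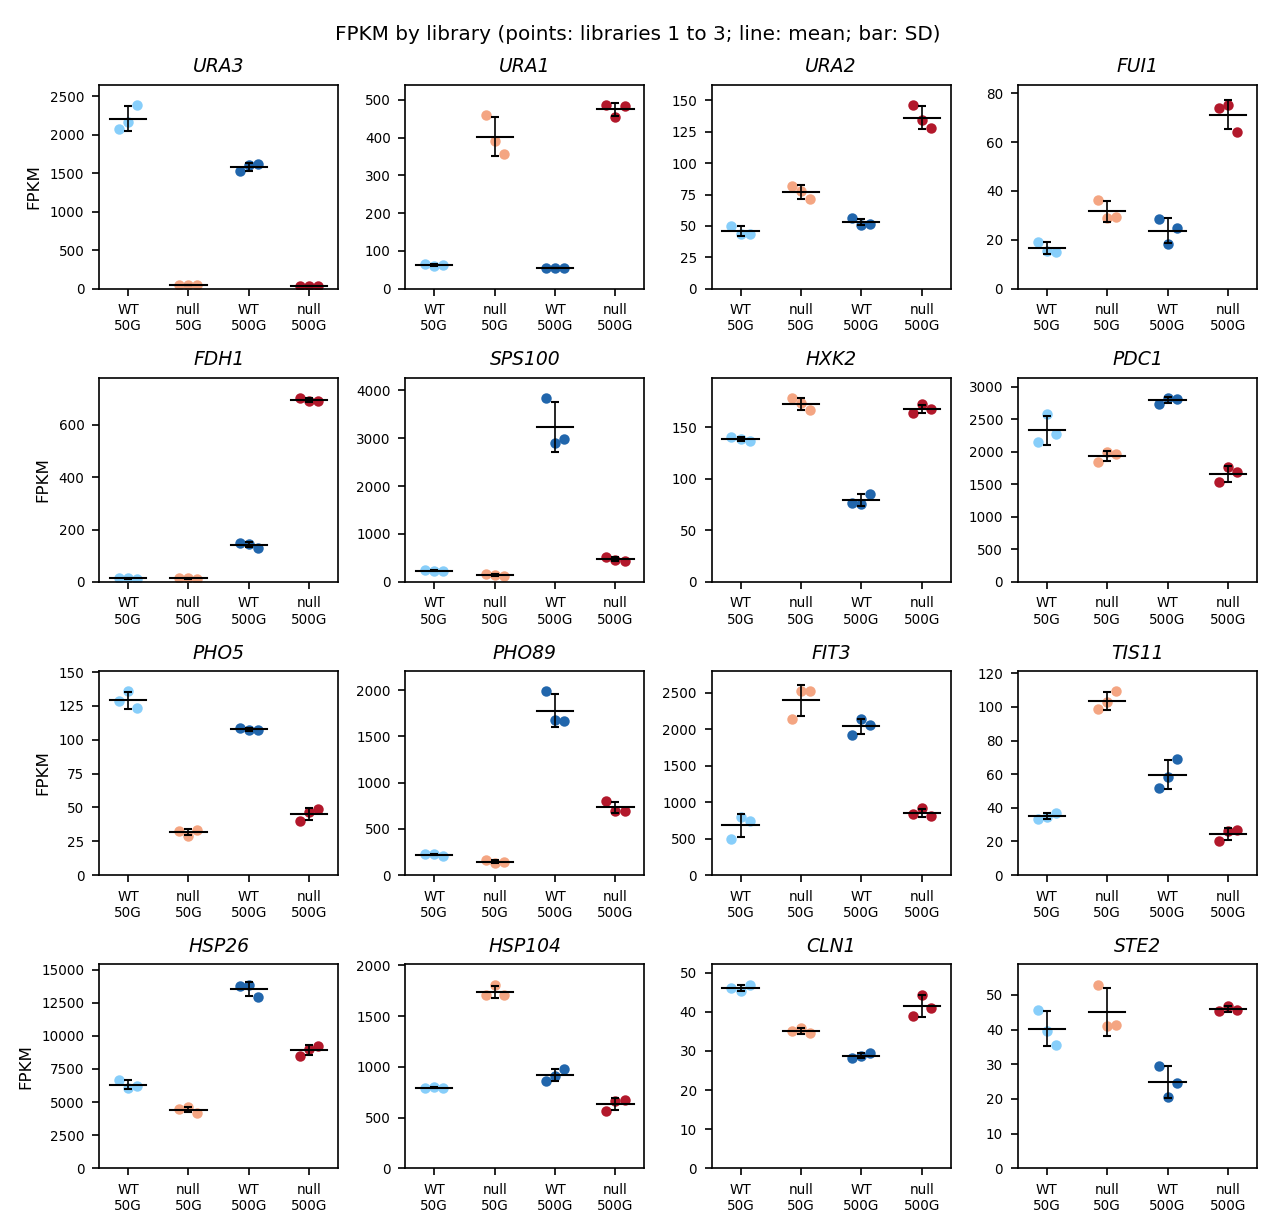
FPKM of 16 genes (y axis, linear from 0) in the 3 libraries of each of the 4 groups, with the mean as a line and the SD as a bar. URA1 is high in ulp2 null at both times, FDH1, SPS100 and PHO89 are far higher at 500G than at 50G in both strains, FIT3 and TIS11 are higher in ulp2 null at 50G and lower at 500G, and HXK2, CLN1 and STE2 are lower in WT 500G than in the other 3 groups.

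Formate dehydrogenase, which oxidises formate to carbon dioxide and makes NADH, separated the strains at 500G and not at 50G. All 3 annotated reading frames rose, of which RefSeq calls FDH2 and YPL276W pseudogenes. FDH1 was at 148, 146 and 131 FPKM in WT 500G and at 702, 692 and 691 FPKM in ulp2 null 500G (log2 difference 2.29, SE 0.08, adjusted p = 2.9e-08). FDH2 was at 266, 283 and 248 against 926, 979 and 964 FPKM (log2 difference 1.85, adjusted p = 1.1e-06). YPL276W, the reading frame that precedes and overlaps FDH2 on chromosome XVI, was at 165, 153 and 122 against 626, 586 and 567 FPKM (log2 difference 2.02, adjusted p = 2.3e-05). At 50G the same genes were low in both strains, FDH1 at 12.9 ± 0.713 FPKM in WT and 13.9 ± 1.39 FPKM in ulp2 null (SD, n = 3). They were thus higher at 500G in both strains and more so in ulp2 null, and the change in the strain difference passed for all 3 (adjusted p = 8.3e-06, 2e-05 and 0.00018). FDH1 and FDH2 share much of their sequence: 84.3% of the 50-base words of FDH2 occur in FDH1, and 90.7% of those of YPL276W, so how reads were split between them is uncertain, although the 3 frames moved alike. The neighbours YPL277C and YPL278C, of unknown function and about 1 kilobase from YPL276W, were higher too, with log2 differences of 1.36 and 1.29 (adjusted p = 8.6e-06 and 0.00011), and they share 37.9% and 80.3% of their 50-base words with YOR389W, the neighbour of FDH1.

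SPS100, for a cell wall glycoprotein made late in sporulation, was lower in ulp2 null 500G. It had 3839.7, 2907 and 2976 FPKM in WT 500G, against 516, 464 and 435 FPKM in ulp2 null 500G, a 6.87-fold gap in mean FPKM (log2 difference -2.77, SE 0.13, adjusted p = 5.5e-07). At 50G it was far lower in both strains, 236 ± 13.1 FPKM in WT and 143 ± 22.3 FPKM in ulp2 null (SD, n = 3), and the strain difference widened, by -2.04 (adjusted p = 5e-05). YGP1, its paralogue, a secreted glycoprotein made on nutrient limitation, was at 2689.6, 2309.9 and 2408 against 1633, 1708 and 1579 FPKM (log2 difference -0.59, adjusted p = 0.0028). YHR139C-A, a small frame 908 bases from SPS100, was also lower, at 29.3, 28.5 and 27.1 against 5.96, 13.8 and 15.1 FPKM (adjusted p = 0.012, and 0.11 with only the 6 libraries). PMA2, the minor plasma membrane proton pump, was at 142, 116 and 116 against 49.9, 41.7 and 41.8 FPKM at 500G (log2 difference -1.47, adjusted p = 3.1e-05) and 22.2 ± 1.96 against 15.7 ± 1.71 FPKM at 50G.

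Genes of the phosphate response were lower in ulp2 null 500G. When phosphate runs short, the activator Pho4 turns on phosphatases and transporters, and Vtc proteins store phosphate as polyphosphate. Of 16 genes, 9 fell and none rose, where 6.06% of all genes tested fell. The median was -0.42, against -0.03 over all genes tested. PHO5, the main secreted acid phosphatase, was at 109, 107 and 107 FPKM in WT 500G and at 40.3, 46.8 and 48.6 FPKM in ulp2 null 500G (log2 difference -1.24, SE 0.08, adjusted p = 8e-06). PHO89, the sodium-coupled phosphate transporter, was at 1988, 1682 and 1668 against 802, 697 and 698 FPKM (log2 difference -1.28, adjusted p = 3.2e-05). PHO11, another acid phosphatase, was at 26.6, 23.4 and 21.1 against 10.4, 11.1 and 13.3 FPKM (log2 difference -0.97, adjusted p = 0.00054). It shares 87.2% of its 50-base words with PHO12, so the 2 cannot be fully separated. PHM8, a phosphatase of nucleotide monophosphates, was at 112, 102 and 108 against 57.2, 60.8 and 67.8 FPKM (log2 difference -0.78, adjusted p = 0.00064). None of these sets overlapped, as in 719 of all 720 calls. The other members that fell were PHO12, the polyphosphate genes VTC4 and VTC2, and the regulators SPL2 and PHO81. The list was lower in ulp2 null at 50G as well, where 13 of 16 fell, against 18.1% of all genes tested. PHO5 was further apart then, by -2.00, and closer by 0.76 at 500G (adjusted p = 0.00089), whereas PHO89 was far lower in both strains at 50G (221 ± 8.62 FPKM in WT and 145 ± 16.6 FPKM in ulp2 null) and its difference grew (adjusted p = 0.0062). With only the 6 libraries, 6 of the 9 falls passed, and under equal-sum scaling 5 did.

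The letters CACGTG, bound by Pho4 and by other factors of its class, read the same on both strands. They stood in the 600 bases before the start codon of 14 of the 16 genes, 8 of the 9 that fell and 6 of the 7 others, and of 434 of 5999 protein-coding genes (7.23%). The matches before the genes with the largest falls are shown, with the letters in capitals.
PHO5 chrII:431187-431216 (- strand): ccttggcactcaCACGTGggactagcacag
PHO89 chrII:798828-798857 (- strand): atgacaatgcagCACGTGggagacaaatag
PHO11 chrI:225165-225194 (+ strand): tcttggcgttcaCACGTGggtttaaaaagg
The match before PHO12 lies in the same 30 letters as that of PHO11, on chromosome VIII.

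Several iron and copper uptake genes reversed their order between the strains from 50G to 500G. Yeast takes up iron through cell wall mannoproteins (Fit), a reductase, oxidase and permease system (Fre, Fet3, Ftr1) and siderophore transporters, all raised by the activator Aft1 when iron is short. Of 26 genes, 9 fell at 500G and 1 rose, where 6.06% of all genes tested fell and 4.90% rose. At 50G 13 had been higher and 1 lower in ulp2 null, where 18.7% of all genes tested were higher and 18.1% lower. FIT3 was at 1926, 2137 and 2058 FPKM in WT 500G and at 832, 919 and 816 FPKM in ulp2 null 500G (log2 difference -1.25, adjusted p = 0.00064), whereas at 50G it was at 500.0, 797 and 748 FPKM in WT and at 2148, 2520.3 and 2519.7 FPKM in ulp2 null. The order of the strains was thus opposite at the 2 times, and the change in difference was -3.09 (adjusted p = 1.4e-05). FIT2 was at 1149, 1215 and 1163 against 655, 665 and 563 FPKM at 500G (log2 difference -0.91, adjusted p = 3.1e-05). FET3, the multicopper ferroxidase, was at 88.0, 81.6 and 87.7 against 40.3, 48.8 and 43.2 FPKM (log2 difference -0.95, adjusted p = 2.9e-05). TIS11, which sends mRNAs of iron-using proteins to decay, was at 52.0, 58.4 and 68.8 against 20.1, 26.5 and 26.7 FPKM (log2 difference -1.26, adjusted p = 0.00017). FIT2, FET3 and TIS11 had also been higher in ulp2 null at 50G, by 0.51, 0.43 and 1.54, and the change passed for each (adjusted p = 1.5e-05, 2e-05 and 1.2e-05). The 4 calls held in every fit without a library and with only the 6 libraries. Other falls were FET4, the low-affinity iron transporter, CTR1, the copper transporter, CCC2, which loads copper into Fet3, SIT1, a siderophore transporter, and CUP1-1, a copper-binding metallothionein whose sequence is identical to that of CUP1-2. CUP1-1 was at 5735, 5826 and 4554 against 4259, 3634 and 3945 FPKM (adjusted p = 0.041) and lost its call in 5 of the 6 fits without a library, with adjusted p up to 0.13. MRS4, which carries iron into mitochondria, was the member that rose (0.26, adjusted p = 0.027), and it lost the call in 3 of those fits. With only the 6 libraries, 5 of the 9 falls passed.

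The letters TGCACCC, the core of the Aft1 site, or their reverse complement GGGTGCA, stood in the 600 bases before 20 of the 26 genes, 7 of the 10 that were called and 13 of the 16 others, and before 161 of 5999 protein-coding genes (2.68%). The matches before the 4 genes named above are shown, a single one where a gene has several, with the letters in capitals.
FIT3 chrXV:1061322-1061351 (- strand): agattttttttTGCACCCtgtttgttccgc
FIT2 chrXV:1059254-1059283 (+ strand): atttaaaacaaTGCACCCtaagttcaaatg
FET3 chrXIII:388560-388589 (+ strand): atcttcaaaagTGCACCCatttgcaggtgc
TIS11 chrXII:416889-416918 (- strand): ccgccgcaaaaTGCACCCacattaaagaag

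**Figure D3:**
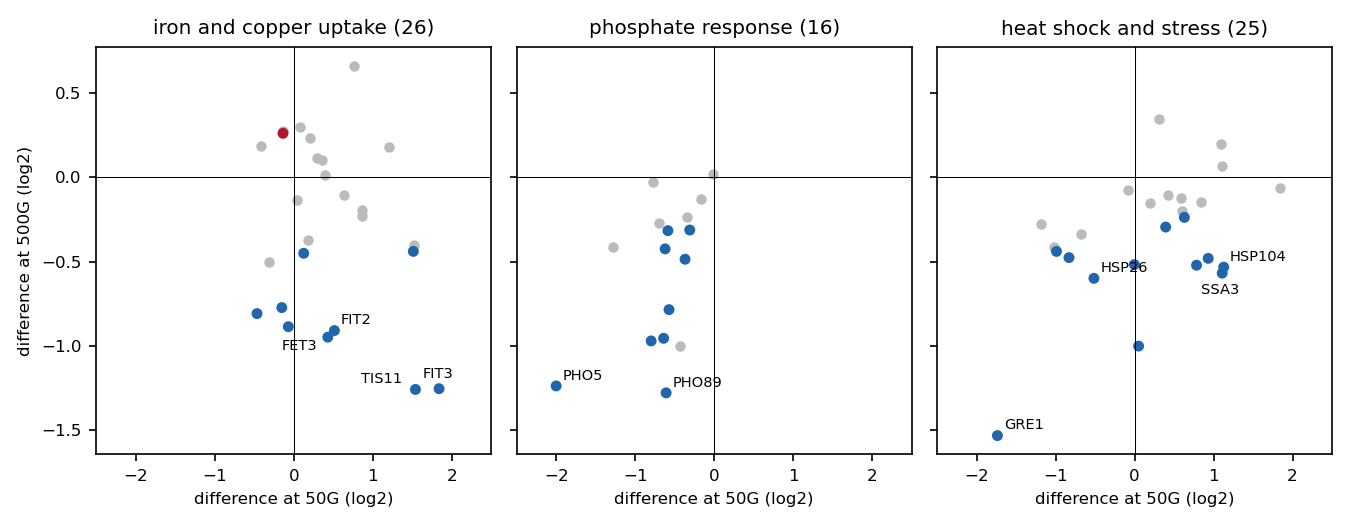
Strain difference (ulp2 null minus WT, log2) at 50G on the x axis and at 500G on the y axis for the genes of 3 lists, with those called at 500G in blue (lower) or red (higher) and the rest in grey. Of the 9 iron and copper genes called lower at 500G 6 lie right of 0 on the 50G axis, the 9 phosphate genes called lower lie in the lower left, and the stress genes called lower at 500G spread over both sides of the 50G axis.

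Heat shock and stress genes were mostly lower in ulp2 null 500G. Of 25, 12 fell and none rose, where 6.06% of all genes tested fell, and the median was -0.29. GRE1, a hydrophilin made under drying and osmotic stress, was at 5294, 6833 and 5811 FPKM in WT 500G and at 1727, 2202 and 2288 FPKM in ulp2 null 500G (log2 difference -1.53, adjusted p = 0.00064). HSP26, a small heat shock protein, was at 13776, 13865 and 12909 against 8486, 9042 and 9249.5 FPKM (log2 difference -0.60, adjusted p = 0.00036). SSA3, a stress-induced Hsp70, was at 614, 665 and 658 against 398, 450.2 and 459 FPKM (log2 difference -0.57, adjusted p = 0.00092). HSP104, the disaggregase, was at 861, 906 and 979.6 against 568, 659 and 674 FPKM (log2 difference -0.53, adjusted p = 0.0021, and 0.054 with only the 6 libraries). The others were CTT1, SSA1, SSA2, SSE2, HSP30, SOD2, HSP78 and DDR48. Members differed in their past: GRE1 and HSP26 were already lower in ulp2 null at 50G (-1.74 and -0.51), whereas SSA3 and HSP104 had been higher (1.11 and 1.13) and crossed over (adjusted p = 1.2e-05 and 1.2e-05 for the change in difference). The count rests in part on the scaling and on the shared spread. Under equal-sum scaling 5 fell and 2 rose, under median-of-ratios scaling 12 fell and 2 rose, and with only the 6 libraries 3 fell.

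Genes of glucose use were split. Over all genes tested 4.90% rose and 6.06% fell. HXK2, hexokinase 2, which starts glycolysis and takes part in glucose repression, was at 76.5, 75.3 and 85.7 FPKM in WT 500G and at 164, 172 and 167 FPKM in ulp2 null 500G (log2 difference 1.08, SE 0.06, adjusted p = 3.5e-06). At 50G the strains had been closer, at 139 ± 1.81 FPKM in WT and 173 ± 5.96 FPKM in ulp2 null (SD, n = 3). HXT4, a hexose transporter, showed the same order, 11.1, 6.33 and 11.6 against 32.5, 24.6 and 23.3 FPKM (log2 difference 1.41, adjusted p = 0.0039, and 0.057 with only the 6 libraries), and was the 1 of 21 hexose transport and sensing genes to be called. PDC1, the main pyruvate decarboxylase, was lower, 2739, 2824 and 2813 against 1529, 1765 and 1687 FPKM (log2 difference -0.75, adjusted p = 0.00032). The minor pyruvate decarboxylase PDC6 was at 27.7, 30.4 and 29.3 against 11.0, 14.6 and 12.7 FPKM (log2 difference -1.13, adjusted p = 0.00014). In all, 1 of 26 glycolysis and fermentation genes rose and 7 fell (2 under equal-sum scaling and with only the 6 libraries), PGK1 among them (-0.33, adjusted p = 0.016), which lost the call without ulp2 null 500G replicate 2 (adjusted p = 0.0536). None of the 5 glucose repressors passed; NRG2 had the smallest p (-0.46, adjusted p = 0.063).

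Genes of the TCA cycle and the respiratory chain had fewer calls at 500G, where 6.06% of all genes were lower, than at 50G, where 18.1% were. None of the 15 TCA cycle genes was called, against 15 lower at 50G; LPD1 had the smallest p (-0.31, adjusted p = 0.0529). Of 41 genes of the respiratory chain and ATP synthase 5 fell and 2 rose, against 30 lower and 2 higher at 50G; under equal-sum scaling 1 fell and 2 rose, and with only the 6 libraries none fell and 1 rose. Those that rose encode the isoforms used when oxygen is short, COX5B (67.3, 74.5 and 70.2 against 101, 111 and 108 FPKM, adjusted p = 0.00038) and CYC7 (74.7, 87.5 and 98.2 against 119, 119.5 and 127 FPKM, adjusted p = 0.011). Among those that fell were the aerobic cytochrome CYC1 (-0.42, adjusted p = 0.006) and the external NADH dehydrogenase NDE2 (-0.53, adjusted p = 0.011). Of 12 genes of gluconeogenesis and the glyoxylate cycle 3 fell (9 at 50G, and 1 at 500G with only the 6 libraries): ICL1, isocitrate lyase, at 5898, 5881 and 5917 against 3852, 4288 and 4289 FPKM (adjusted p = 0.00094), PCK1, which starts gluconeogenesis, at 11229, 10629 and 11338 against 6392, 7988 and 7482 FPKM (adjusted p = 0.0014), and MLS1, malate synthase (-0.27, adjusted p = 0.034), which lost the call in 4 of the 6 fits without a library. For ICL1 the difference had been -1.42 at 50G and was smaller at 500G (adjusted p = 0.00011). In the other direction, POX1, the oxidase that starts fatty acid oxidation in peroxisomes, was at 301, 239 and 258 against 387, 390.1 and 385 FPKM (adjusted p = 0.0045) and DCI1 at 120.0, 105 and 93.4 against 162, 140.0 and 155 FPKM (adjusted p = 0.0062), 2 of 18 genes of that list. ICL2 of the methylcitrate cycle rose (0.31, adjusted p = 0.006), ATO2, linked to acetate and ammonium export, rose (0.59, adjusted p = 0.007), and CRC1, the mitochondrial carnitine carrier, fell (-0.30, adjusted p = 0.025, lost in 5 of the 6 fits). Of 17 genes of trehalose and glycogen, GSY1, glycogen synthase, and GPH1, glycogen phosphorylase, rose (0.37 and 0.37, adjusted p = 0.0057 and 0.012).

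In nitrogen use, PTR2, the di- and tripeptide transporter, was at 36.8, 26.2 and 29.2 FPKM in WT 500G and at 119.8, 86.1 and 91.3 FPKM in ulp2 null 500G (log2 difference 1.66, adjusted p = 0.00015). It had been higher at 50G too, by 2.07. MEP2, the high-affinity ammonium transporter, was the other of 26 nitrogen-regulated permeases to rise (61.9, 41.5 and 39.2 against 104, 73.3 and 71.2 FPKM, adjusted p = 0.0478), and lost the call in 5 of the 6 fits without a library. Over all genes tested 4.90% rose. Of 11 allantoin and urea genes DUR12 (DUR1,2), urea amidolyase, rose from 24.4, 19.9 and 24.0 to 41.4, 36.4 and 38.1 FPKM (adjusted p = 0.0012), and DAL3 was called at the edge (0.49, adjusted p = 0.0487) and lost in 5 of these fits.

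Amino acid synthesis genes moved in both directions, and several of the falls depended on the scaling. BAT2, the cytosolic branched-chain aminotransferase, was higher, 879, 839 and 799.9 against 1223, 1328 and 1323 FPKM (adjusted p = 0.00015), while ILV2 and ILV3 of the same pathway were lower (-0.46 and -0.37, adjusted p = 0.0028 and 0.02). LYS20, homocitrate synthase, was lower, 188, 179 and 186 against 115, 131 and 117 FPKM (adjusted p = 0.00061), as was its paralogue LYS21 (-0.29, adjusted p = 0.027), whereas LYS1 (0.31, adjusted p = 0.0084) was higher. Histidine genes split in the same way, with HIS4 (-0.50, adjusted p = 0.00081), HIS7 (-0.38, adjusted p = 0.033) and HIS5 (-0.25, adjusted p = 0.045) lower and HIS1 (0.42, adjusted p = 0.0055) higher, as did those of arginine, with ARG56 (-0.53, adjusted p = 0.0098) (ARG5,6) and ARG7 (-0.39, adjusted p = 0.022) lower and CPA1 (0.30, adjusted p = 0.028) higher, and of aromatic amino acids, with ARO9 (0.36, adjusted p = 0.0098) higher and ARO2 (-0.34, adjusted p = 0.029) lower (log2 differences in parentheses). No gene of 21 for sulfur amino acids was called; SUL1 had the smallest p (0.34, adjusted p = 0.067). Of 14 purine synthesis genes, IMD2, an IMP dehydrogenase, was at 6.90, 5.36 and 4.94 against 2.30, 2.08 and 3.03 FPKM (adjusted p = 0.0038), after a difference in the other direction of 1.51 at 50G (adjusted p = 4.2e-05 for the change). ADE1, ADE17, ADE2 and ADE6 were lower by small steps (-0.36, -0.31, -0.26 and -0.33, adjusted p = 0.022, 0.024, 0.025 and 0.025) and IMD4 was higher (0.79, adjusted p = 0.026). Under equal-sum scaling 1 of the 5 purine falls passed. In that scaling 1 gene fell in each of the lysine, histidine and arginine lists, and none in the branched-chain and aromatic lists. With only the 6 libraries, no arginine, aromatic or purine gene was called. In that fit 1 lysine and 1 histidine gene fell, and 1 branched-chain gene rose and 1 fell. LYS21, HIS7, HIS5, ARG7, CPA1, ARO2, ILV3, ADE1, ADE17, ADE2, ADE6 and IMD4 each lost the call in 2 to 5 of the 6 fits without a library, HIS7 with adjusted p up to 0.11 and HIS5 up to 0.12.

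Cytosolic ribosomal protein genes, of which 131 of 137 had been higher in ulp2 null at 50G, showed little at 500G: 7 rose and 1 fell, with a median of 0.10 against 0.93 at 50G, and in 114 of 137 the strain difference had become smaller by the test of the change. RPL32 was at 748, 878 and 733 against 789.7, 885 and 913 FPKM (0.14, adjusted p = 0.35). The count depends on the scaling, since 26 rose under equal-sum scaling. Of 73 mitochondrial ribosomal protein genes 4 rose and none fell. The rises in both lists lie near the 4.90% of all genes tested that rose. Over all genes tested 6.06% fell. In the SSU processome, RRP9 (-0.55, adjusted p = 0.0026), SOF1 (-0.28, adjusted p = 0.03) and UTP18 (-0.44, adjusted p = 0.045) fell of 33. Among 60S assembly factors NOP15 (-0.50, adjusted p = 0.035) and PUF6 (-0.46, adjusted p = 0.041) fell of 43, near the share of all genes. Among subunits and factors of RNA polymerases I and III RPC82 (-0.69, adjusted p = 0.0018) and RRN3 (-0.33, adjusted p = 0.0098) fell of 20. Of these 7, RRP9, RPC82 and RRN3 kept their calls in all 6 fits without a library, and the others lost theirs in 4 or 5. Under equal-sum scaling 1 of the SSU processome genes, none of the 60S factors and 1 of the polymerase genes fell, and with only the 6 libraries none of the 7 passed. None of the 8 core proteins of snoRNPs was called; NOP10 had the smallest p (-0.38, adjusted p = 0.071).

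Small nucleolar RNAs, which guide chemical modification of ribosomal RNA, were higher in ulp2 null 500G in level but rarely past the test in the main fit. With the replicate number added to the fit as a block, 20 of 29 box H/ACA and 6 of 41 box C/D genes rose, against 2 and 2. No source says what that number marks. Box H/ACA snoRNAs guide pseudouridylation, and all 29 had a positive difference, with a median of 1.19; 2 rose past the threshold, 16 had an unadjusted p under 0.05, and in 7 every ulp2 null library lay above every WT library, as in 11.2% of all genes tested. By library, the median FPKM of the list was 171.1, 154.5 and 105.5 for WT 500G, against 363.3, 528.3 and 185.5 for ulp2 null 500G. Every ulp2 null library was above every WT library in this median, but the third ulp2 null library lay nearer to the first WT library than to its own group. SNR81 was at 61.1, 53.4 and 42.4 against 194, 234 and 93.6 FPKM (log2 difference 1.63, SE 0.44, adjusted p = 0.041), and SNR5 at 160.2, 107 and 95.9 against 281, 528 and 185 FPKM (log2 difference 1.35, SE 0.38, adjusted p = 0.0478). They lost the call in 5 and 4 of the 6 fits without a library, and neither call survived the loss of ulp2 null 500G replicate 2 (adjusted p = 0.13 and 0.14), without which the list median was 0.71 and 28 of 29 differences stayed positive. SNR30, needed for ribosomal RNA cleavage, was at 311, 261 and 143 against 363, 485 and 202 FPKM and was not called (adjusted p = 0.49).

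Box C/D snoRNAs guide ribose methylation. Of 47, 41 were tested, 32 of them had a positive difference, 2 rose, and the median was 1.22, or 0.78 without ulp2 null 500G replicate 2. Between 17 and 25 of the 47 were listed at 0 in each library, whereas no H/ACA gene was. SNR76 was 0 in every WT 500G library, against 73.1, 27.8 and 45.1 FPKM in ulp2 null 500G (adjusted p = 0.012), so no fold is given. At 50G it was 0 in 3 of the 6 libraries, its values being 0, 0 and 13.4 FPKM for WT and 0, 12.9 and 10.5 FPKM for ulp2 null. SNR68 was at 39.2, 86.7 and 38.1 against 168, 511 and 125 FPKM (log2 difference 2.10, SE 0.55, adjusted p = 0.034) and lost the call in 4 of the 6 fits without a library. Of 10 other stable noncoding RNAs none was called; the U6 RNA SNR6 had the smallest p (214, 151 and 99.5 against 275, 522 and 365 FPKM, adjusted p = 0.1). The labels call the RNA polyA while the methods call it total, and snoRNAs mostly lack a polyA tail, and the part of the library preparation in these levels was not tested. The 2 C/D genes called are shown from the RefSeq R64 genome, to make plain how short they are. Capitals mark CTGA within the last 20 bases (box D, found in 45 of 47 C/D genes) and TGATGA within the first 25 (the core of box C, found in 36 of 47, and not in SNR76).
SNR76 chrXIII:297725-297833 (+ strand): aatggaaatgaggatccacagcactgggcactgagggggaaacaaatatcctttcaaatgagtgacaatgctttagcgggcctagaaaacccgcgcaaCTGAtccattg
SNR68 chrIX:97111-97246 (+ strand): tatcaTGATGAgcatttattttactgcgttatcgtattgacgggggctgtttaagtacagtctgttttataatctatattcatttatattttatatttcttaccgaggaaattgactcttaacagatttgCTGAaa

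**Figure D4:**
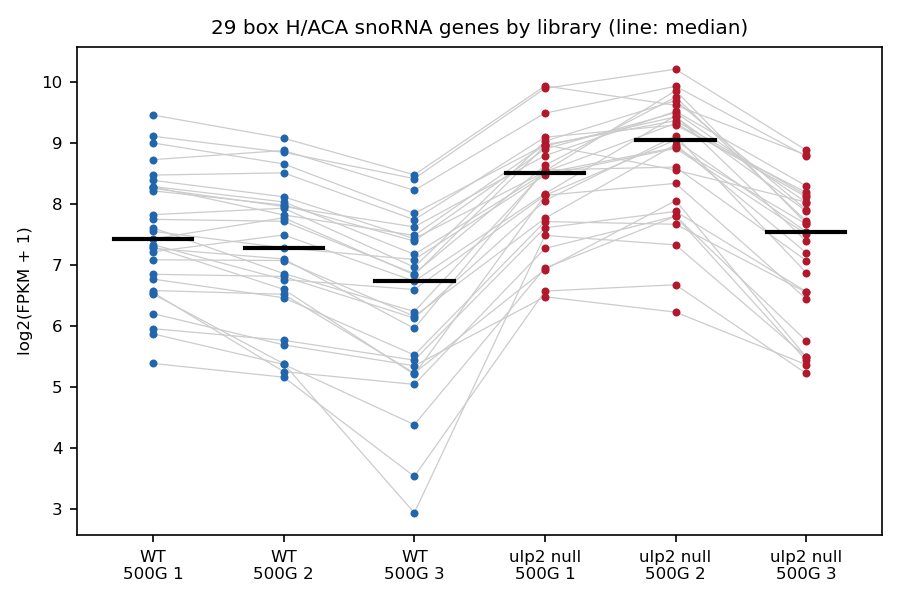
FPKM of the 29 box H/ACA snoRNA genes on the y axis (log2 of the value plus 1) in the 3 WT 500G libraries (blue) and the 3 ulp2 null 500G libraries (red), with grey lines joining a gene and a black line at the median. The medians run from 105.5 to 171.1 FPKM in WT and from 185.5 to 528.3 FPKM in ulp2 null, and the second ulp2 null library is the highest.

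Of 11 genes of the SUMO pathway, ULP2 being counted with the strain markers, 1 was called, where 11.0% of all genes tested were: AOS1, for a subunit of the E1 enzyme, at 98.4, 102 and 89.2 against 71.9, 80.5 and 82.3 FPKM (log2 difference -0.30, adjusted p = 0.043). That call ended in 5 of the 6 fits without a library and under equal-sum scaling (adjusted p = 0.24). SMT3, for SUMO, was at 507, 727 and 709.8 against 475, 619 and 689.7 FPKM, and UBC9, for the E2 enzyme, at 122, 120.2 and 102 against 111, 104 and 110.2 FPKM, sets that overlap (adjusted p = 0.7 and 0.58). CCR4, of the CCR4-NOT deadenylase, was at 43.0, 51.3 and 49.9 against 37.0, 43.7 and 44.2 FPKM (-0.20, adjusted p = 0.27). Of the 10 genes of that complex and DHH1, CDC39 (0.39, adjusted p = 0.013) rose and NOT3 (-0.31, adjusted p = 0.033) fell. CDC39 lost its call without WT 500G replicate 2 (adjusted p = 0.0536), and NOT3 lost its call in 4 of the 6 fits without a library. None of 5 sirtuin genes was called, HST3 having the smallest p (-0.32, adjusted p = 0.076), and none of 27 for the kinetochore and spindle checkpoint, where SGO1 had it (0.48, adjusted p = 0.073). BUB1 was at 5.91, 5.20 and 7.15 against 6.91, 7.56 and 7.13 FPKM (adjusted p = 0.31). Among other genes the study names, RAP1 (-0.30, adjusted p = 0.061), NET1 (-0.03, adjusted p = 0.92), CDC14 (0.06, adjusted p = 0.81) and CCW12 (0.32, adjusted p = 0.14) were not called. IFM1, a mitochondrial initiation factor, was at 18.4, 23.9 and 23.0 against 16.8, 21.6 and 20.7 FPKM (adjusted p = 0.53). These transcript levels do not show the coding changes that the study reports in UBC9, IFM1 and BUB1.

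Some genes of cell division were higher in ulp2 null 500G. Of 14 cyclin and CDK genes 5 rose and none fell. Over all genes tested 4.90% rose and 6.06% fell, shares that also bear on the other lists of this paragraph. The G1 cyclin CLN1 was at 28.2, 28.8 and 29.4 FPKM in WT 500G and at 39.0, 44.4 and 40.9 FPKM in ulp2 null 500G (log2 difference 0.51, adjusted p = 0.00055), and CLN3, the G1 cyclin that starts the program, at 27.4, 25.4 and 29.4 against 36.4, 42.2 and 38.0 FPKM (log2 difference 0.49, adjusted p = 0.0042). At 50G CLN1 had been higher in WT, 46.1 ± 0.802 against 35.1 ± 0.725 FPKM, so the order turned (adjusted p = 6.1e-05). CDC28 (0.38, adjusted p = 0.012), SWE1 (0.44, adjusted p = 0.041) and FAR1 (0.31, adjusted p = 0.0459) followed with smaller steps. Histone genes HTB2 (0.54, adjusted p = 0.0036), HHF2 (0.48, adjusted p = 0.02) and HTA2 (0.60, adjusted p = 0.033) rose of 10. Of 17 DNA damage response genes 3 rose and 2 fell. The ribonucleotide reductase subunit RNR1 (13.8, 12.7 and 13.7 against 21.5, 21.7 and 20.4 FPKM, adjusted p = 0.00036) and the kinase DUN1 (0.57, adjusted p = 0.0047) were among those that rose, while the small reductase subunits fell, RNR2 at 1141, 1128 and 1189 against 797, 765 and 834 FPKM (adjusted p = 0.00038) and RNR4 (-0.45, adjusted p = 0.003). The subunits of 1 enzyme thus went opposite ways, and that held under equal-sum scaling. Of 21 SMC complex genes the cohesin genes MCD1 (0.61, adjusted p = 0.029), IRR1 (0.30, adjusted p = 0.04) and PDS5 (0.41, adjusted p = 0.036) and the condensin gene YCS4 (0.38, adjusted p = 0.031) rose and KRE29 (-0.44, adjusted p = 0.024) of the Smc5/6 complex fell. CLN1, CLN3, CDC28, HTB2, RNR1, RNR2, RNR4 and DUN1 kept their calls in all 6 fits without a library. SWE1, FAR1, HHF2, HTA2 and all 5 SMC genes lost theirs in 2 to 5 of these fits, MCD1 with adjusted p up to 0.1. With only the 6 libraries, 1 of the 14 cyclin and CDK genes passed, and no histone or SMC gene did. In that fit 2 rises and 2 falls of the DNA damage list passed.

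At the cell surface, 4 of 22 mannoprotein genes rose and none fell: CIS3 was at 216, 250.4 and 212 against 356, 398 and 379.6 FPKM (adjusted p = 0.0022), with FLO10 (0.50, adjusted p = 0.0048), TIR1 (0.72, adjusted p = 0.018) and CWP2 (0.37, adjusted p = 0.029). Among the a-specific genes 4 of 7 rose, where 4.90% of all genes tested rose. STE2, the alpha-factor receptor, was at 29.6, 20.5 and 24.6 against 45.4, 46.8 and 45.7 FPKM (log2 difference 0.87, adjusted p = 0.0036), and ASG7 at 17.6, 14.7 and 17.2 against 27.0, 29.8 and 27.0 FPKM (adjusted p = 0.00056), with BAR1 (0.63, adjusted p = 0.012) and STE6 (0.37, adjusted p = 0.028). For STE2 both 50G groups resembled ulp2 null 500G, at 40.2 ± 5.06 FPKM in WT and 45.1 ± 6.82 FPKM in ulp2 null. Of 4 alpha-specific genes SAG1 (0.35, adjusted p = 0.007) rose, and of 14 mating genes shared by both types SST2 (0.84, adjusted p = 0.00013), a brake on the pheromone signal, and FAR1 rose and GPA1 (-0.26, adjusted p = 0.036) fell. CWP2, TIR1, STE6 and GPA1 lost their calls in 2 to 5 of the 6 fits without a library. With only the 6 libraries, 1 mannoprotein gene and 2 a-specific genes rose.

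Of the remaining lists, ergosterol synthesis had 4 of 24 genes up (ERG6 (0.36), ERG4 (0.73), ERG7 (0.36) and ERG28 (0.53), adjusted p = 0.014, 0.028, 0.034 and 0.041) and 1 down (ERG13 (-0.28), adjusted p = 0.013), each lost in at least 1 of the 6 fits without a library. No ergosterol gene passed with only the 6 libraries. Over all genes tested 4.90% rose and 6.06% fell. Of 19 genes for thiamine and vitamin B6, SNZ1 (-0.51, adjusted p = 0.0042) and THI5 (-0.38, adjusted p = 0.016) fell and THI7 (0.67, adjusted p = 0.0458) rose, the last of which was lost in 5 of these fits. No call was made among 33 proteasome genes (RPT1 closest, -0.26, adjusted p = 0.0504) or 6 zinc-responsive genes (ADH4 closest, 0.28, adjusted p = 0.063). Of the 3 reference genes of the study's assays, SPT15 and PGK1 fell (-0.23, adjusted p = 0.0472, lost in all 6 fits, and -0.33, as above), while ACT1 was at 1048, 1044 and 906 against 1041, 1102 and 1039 FPKM (adjusted p = 0.44). Chromosome I had 7 genes up and 8 down of 96 (15.6% called) and chromosome XII 32 up and 19 down of 518 (9.85%), against 11.0% of all genes tested. The 339 genes within 30 kb of a chromosome end had 27 up and 27 down. Of 28 tested COS and PAU genes, subtelomeric families of similar copies, 2 rose and 1 fell. None of the 8 mitochondrial genome genes in the table passed the filter, and the 2-micron plasmid genes were not analysed here. Reading frames of unknown function completed the largest changes: YER188W was at 5.91, 3.77 and 6.23 against 14.6, 12.5 and 12.4 FPKM (adjusted p = 0.00064), YMR175W-A at 71.1, 47.1 and 38.1 against 28.1, 10.7 and 14.8 FPKM (adjusted p = 0.036) and YPR012W at 22.3, 26.7 and 24.8 against 16.4, 4.16 and 8.70 FPKM (adjusted p = 0.027). YMR315W-A and YLR466C-B were listed at 0 in all 3 ulp2 null 500G libraries and at 18.6, 62.4 and 61.8 and 32.2, 59.2 and 19.5 FPKM in WT 500G (adjusted p = 0.035 and 0.00071). YMR175W-A, YPR012W and YMR315W-A lost their calls in 4, 5 and 6 of the 6 fits without a library.

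**Figure D5:**
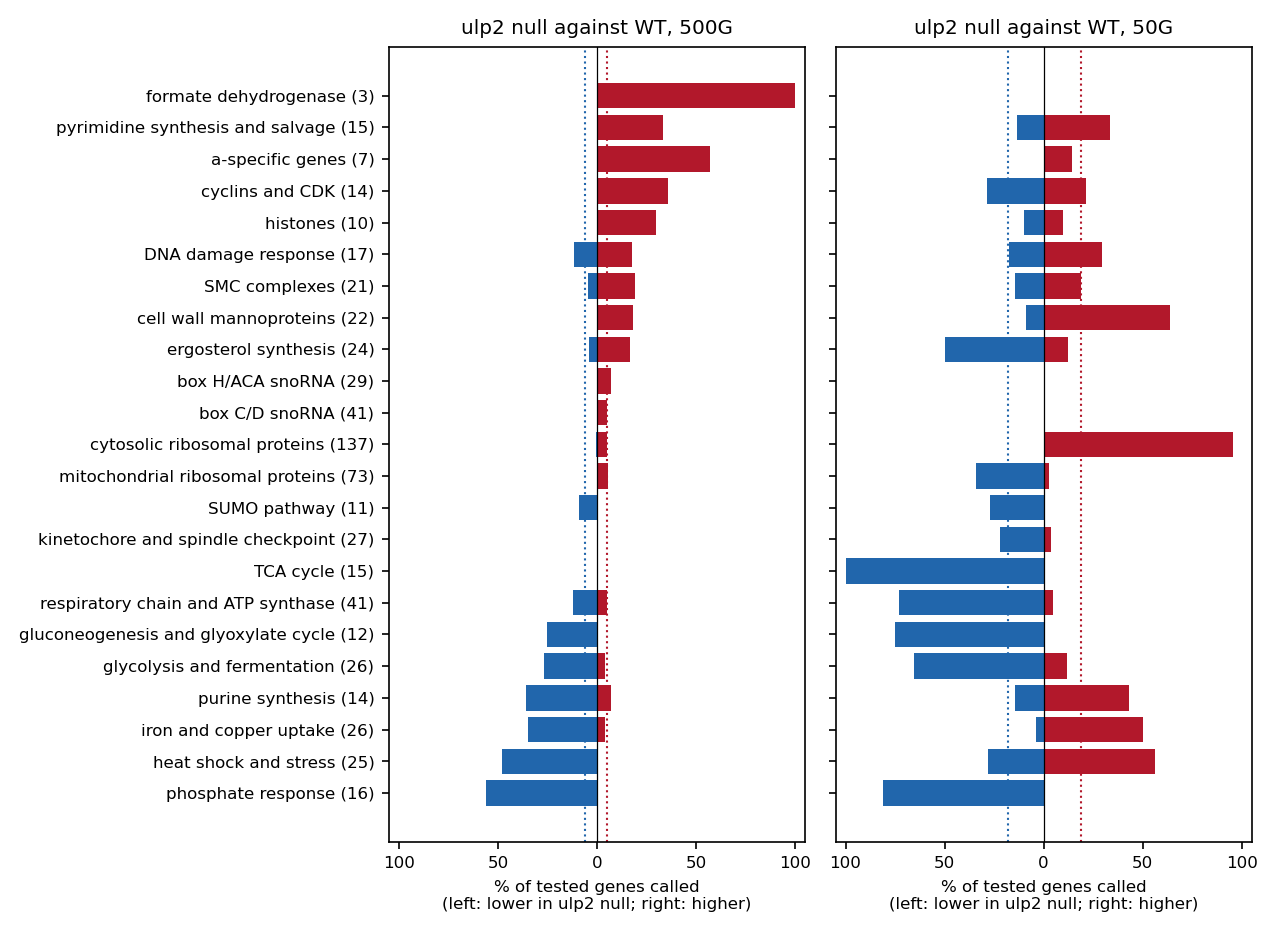
Percentage of the tested genes of 23 lists (number tested in parentheses) called higher (red, to the right) or lower (blue, to the left) in ulp2 null than in WT, at 500G in the left panel and at 50G in the right panel, with dotted lines at the percentages for all genes tested (4.90% higher and 6.06% lower at 500G, 18.7% higher and 18.1% lower at 50G). Phosphate genes point left in both panels, ribosomal protein and TCA cycle genes stand out only at 50G, and formate dehydrogenase only at 500G.

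Over all genes, the passaged strains differed less than the same strains at 50G, where 2423 genes (36.9%) were called. Of the 720 genes called at 500G, 324 had been called in the same direction at 50G (45.0% of the 500G calls and 13.4% of the 50G calls), 117 higher and 207 lower. Another 97 had been called in the opposite direction, 51 of them higher only later and 46 lower only later. For all 97 the change in the strain difference passed, which opposite calls in the same fit all but fix in advance. The remaining 299 had no call at 50G. In all, the change in difference passed for 1494 genes (22.7%), of which 1157 were not called at 500G. The 50G libraries are separate from those at 500G, so these counts compare 2 sets of 6 libraries within a common fit.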

How the data were processed

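RNA-seq libraries of WT and ulp2 null yeast at 50 and 500 generations (3 of each, 12 in all) were deposited by the authors as 1 table of FPKM for 7126 genes. Per the labels and methods, the authors trimmed the paired, strand-specific reads, mapped them to Ensembl R64-1-1 with TopHat2 2.1.1, discarded reads that mapped to several places and computed FPKM in Cuffdiff (Cufflinks 2.2.1), correcting for sequence bias. Dropping reads of several places lowers the FPKM of near-identical genes. FPKM keeps no read depth, so no count model or counting interval was used and the depth is unknown.

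A gene was tested if its FPKM averaged at least 1 over the 12 libraries (6572 genes), with contrasts fitted in limma 3.58.1 (R 4.3.3) on log2(FPKM + 1), with a coefficient per group, all 4 groups in 1 fit, empirical Bayes with a trend, and Benjamini-Hochberg adjustment over all genes tested at 0.05. The contrasts were ulp2 null 500G minus WT 500G, the same at 50G, and their difference. The script was tested on simulated data. The genes named were the 15 largest rises and 15 largest falls with non-overlapping libraries and a mean of at least 10 FPKM in the higher group, genes the study names, the called members of each list (the 4 with the smallest adjusted p where more than 6 were called), and the member with the smallest p of a list with none; any other gene named was chosen after its values were seen. Lists defined by a symbol pattern or by position (ribosomal proteins, COS and PAU genes, chromosomes and their ends) are given as counts, and 1 called member of another list is not reported here. The comparison and the gene lists were chosen with earlier results of these data known.

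The table's 7126 genes were matched to RefSeq R64, with 6048 found through the systematic name, 114 more through the symbol and 964 not found. Alternatives were a pseudocount of 0.1, no filter or 10 FPKM, only the 2 groups compared, a replicate block, median-of-ratios and equal-sum scaling, no trend, an adjusted p of 0.01, fold as a ratio of mean FPKM, and leaving out each library.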

Additional observations from a re-analysis of the deposited data

Results flagged for a closer look

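For 82 of the genes named in the text, the strain difference itself changed between 50G and 500G by the interaction contrast in limma (22.7% of all genes tested did). Most were named for a call at 500G, which enters this contrast. Of the 720 genes called at 500G, 337 changed, so the 22.7% is not a like measure for the named genes. Each value is the log2 difference between ulp2 null and WT at 500G minus that at 50G, so a positive value means that ulp2 null moved up relative to WT during passaging. Causes were not tested.

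In pyrimidine synthesis the change was 0.45 for URA1, 0.62 for URA2, 0.36 for URA8 and -0.43 for URA4. In the formate dehydrogenase group it was 2.19 for FDH1, 1.78 for FDH2, 1.85 for YPL276W, 0.77 for YPL277C and 0.58 for YPL278C. SPS100 changed by -2.04, its neighbour YHR139C-A by -1.44 and PMA2 by -0.99. Among frames of unknown function it was 1.36 for YER188W, -1.61 for YPR012W and -6.72 for YLR466C-B, which rests on libraries listed at 0.

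For phosphate genes the change was 0.76 for PHO5 and -0.67 for PHO89. Iron and copper genes moved mostly down, by -3.09 for FIT3, -2.80 for TIS11, -1.95 for CUP1-1, -1.42 for FIT2 and -1.38 for FET3, against 0.40 for MRS4. The chaperone genes SSA3 and HSP104 changed by -1.68 and -1.66.

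In carbon metabolism the change was 1.02 for HXT4, 0.76 for HXK2, 0.52 for PGK1, -0.73 for PDC6 and -0.49 for PDC1. For genes lower in ulp2 null than in WT at 50G the difference moved up, by 1.58 for ATO2, 1.45 for MLS1, 1.15 for POX1, 0.93 for CYC1, 0.92 for NDE2, 0.90 for ICL1, 0.77 for ICL2, 0.77 for GPH1, 0.76 for CRC1 and 0.61 for PCK1. DCI1, not called at 50G, changed by 0.46, and COX5B and CYC7, high in ulp2 null at 50G, by -0.62 and -1.05.

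In nitrogen and amino acid metabolism the change was 1.49 for MEP2, 1.10 for DUR12, 1.09 for ARG56, 0.62 for BAT2, 0.44 for ILV3 and 0.33 for CPA1. The purine genes IMD2 and ADE1 changed by -2.47 and -0.79. In ribosome assembly it was -1.50 for SOF1, -0.80 for UTP18, -0.77 for RPC82 and -0.72 for RRP9, against 2.07 for the snoRNA SNR81.

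In the cell cycle and DNA damage lists the change was 1.12 for MCD1, 1.06 for RNR1, 0.89 for CLN1, 0.76 for DUN1, 0.75 for HTB2, 0.61 for RNR4, 0.58 for SWE1, 0.54 for RNR2, 0.49 for IRR1, 0.48 for PDS5 and 0.40 for CDC28. In the cell wall it was 0.73 for CIS3, 0.69 for CWP2 and -0.43 for FLO10, and in the mating lists 0.72 for STE2, 0.61 for BAR1, 0.38 for ASG7 and -0.37 for SST2. In sterol and vitamin synthesis it was 1.09 for ERG28, 0.65 for ERG6, 0.50 for ERG7, 0.41 for ERG13 and -1.10 for SNZ1. TKL1, TOS4 and CDC21, in none of these lists, changed by 0.65, 0.75 and 1.22.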

How the results depend on the processing

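The counts moved most with the samples in the fit. With only the 2 groups compared, 133 genes were called in place of 720, and 14 in place of 28 were over 2-fold higher; the change between 50G and 500G needs all 4 groups and was not run there. The replicate numbers were shared by the groups, and a fit with them as a block gave 1425 calls, 51 over 2-fold higher, with 20 of 29 box H/ACA snoRNAs (2 without the block) and 6 of 41 box C/D snoRNAs (2 without it) called higher. Deviations of same-numbered WT 500G and ulp2 null 500G libraries correlated at 0.157, -0.066 and 0.066, not over 0.1 in every pair, so the numbers were not taken to pair these groups. Across passages the same-numbered values were mixed. They were 0.141, 0.115 and 0.135 for WT 50G with ulp2 null 500G and 0.097, 0.181 and 0.203 for ulp2 null 50G with WT 500G. They were 0.122, -0.016 and 0.083 for WT 50G with WT 500G and -0.043, -0.06 and 0.002 for ulp2 null 50G with ulp2 null 500G. Unlike numbers in that last pair of groups reached 0.145 and 0.155. No source says what a number marks. At an adjusted p under 0.01, 251 genes were called, 14 over 2-fold higher, and 868 changed their strain difference. Leaving out each library in turn gave 409 to 744 calls, 22 to 35 over 2-fold higher, 18 to 27 over 2-fold lower, and 1221 to 1518 changed strain differences. The causes of these moves were not tested. The pseudocount, the filters, the trend and both scalings kept each of these 4 counts within 1.5 times.

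Of 142 named genes that were called, 54 kept the call under every alternative and 85 lost it with only the 2 groups. Over all 2980 combinations of gene and alternative 489 lost the call and none turned the direction. Of 23 named genes not called, UBC9 changed sign with equal-sum scaling (0.0392), NET1 with equal-sum (0.0835) and median-of-ratios scaling (0.0033) and without some libraries (lowest -0.143 and highest 0.106), CDC14 without WT 500G replicate 2 (lowest -0.109 and highest 0.220), and SMT3 without ulp2 null 500G replicate 1 (lowest -0.289 and highest 0.0316 over the fits without a library). No depth limit can be given from FPKM.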

Other observations

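The groups in these paragraphs were chosen after their values were seen. Reading frames of Ty elements, the retrotransposons of yeast, were mostly higher in ulp2 null 500G. Frames were picked by the word gag in their RefSeq product, which also took in GAG1 (YLR407W), not a Ty frame. Of 52 tested, GAG1 included, 23 rose by 0.63 to 0.97 on the log2 scale and none fell. The median difference was 0.61, and GAG1 was not called (0.06, adjusted p = 0.88 in limma). Their median FPKM was 5.01, 5.71 and 6.59 for WT 500G and 8.03, 8.30 and 9.16 for ulp2 null 500G, so every ulp2 null library lay above every WT library. With only the 2 groups 5 rose. At 50G the median was -0.15, with 7 called lower, and the 1 called higher was GAG1 (0.95, adjusted p = 0.002 in limma). Many of the copies are nearly identical and are not independent of each other, and only reads with a single location were kept. Frames not called included YGR109W-B, YHL009W-B and YJL113W (0.45, 0.26 and 0.24, adjusted p = 0.13, 0.14 and 0.34 in limma).

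Single genes outside the lists also separated the strains. RIB4, for a late step of riboflavin synthesis, was at 363, 327 and 305 FPKM in WT 500G and at 719, 763 and 718 FPKM in ulp2 null 500G (log2 difference 1.15, adjusted p = 2.2e-05). FKS1, a glucan synthase, was at 48.7, 35.1 and 39.5 against 85.5, 71.4 and 68.4 FPKM (adjusted p = 0.0047), and OLE1, the fatty acid desaturase, at 2305, 2006 and 1855 against 1202, 1099.9 and 1123 FPKM (adjusted p = 0.00049). In the pentose phosphate pathway the paralogues went opposite ways, TKL1 by 0.67 (adjusted p = 0.00035) against TKL2 by -0.81 (adjusted p = 2.8e-05). The replication factor CDC45 was higher by 0.86, the transcription regulator TOS4 by 0.68 and thymidylate synthase CDC21 by 0.58 (adjusted p = 0.0034, 0.006 and 0.0032).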
